A study of Rattus norvegicus with 12 samples.

Results

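Dbp, Tef, Hlf, Nfil3, Ciart, Bhlhe40 and Bhlhe41 are transcription factors and cofactors through which the circadian clock passes its rhythm on to other genes, or which act back on it. They were taken by symbol, with earlier results of these data known, as were the gene lists below. Shares of all genes called are therefore set beside their counts as description, not as a test of the set. All 7 were found among the 23144 genes measured in rat joint and passed the filter on low values in all 3 comparisons. The 12 libraries fall into the groups sham, model and treatment, with 4 in each, and the series title names Yi-Ping Lin Circum-knee acupuncture and knee osteoarthritis. The labels do not state how the model was made, what the treatment libraries received beyond that title, the strain, sex or age of the rats, what was given to all groups, or the time of day at which joints were taken. Whether the 4 libraries of a group come from separate animals is not stated either. The p-values below therefore describe the variation among these libraries, which need not be variation among animals.

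In outline, no gene of the 7 passed the test between model and sham. In treatment, 6 of the 7 were higher and Nfil3 was lower, against either other group. Of all genes, 0% were called between model and sham, 14.1% between treatment and model, and 36.8% between treatment and sham. Bhlhe41 had the largest of the 7 fold changes against both model and sham, and Bhlhe40 the smallest p-value in both.

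In mammals the core clock is a loop in which Clock and Bmal1 bind E-boxes, with the letters CACGTG in their canonical form, and drive the Per and Cry genes, whose proteins then repress Clock and Bmal1. Dbp, Tef and Hlf are PAR bZIP activators of D-box elements, and Nfil3, also called E4bp4, represses through the same elements. Ciart, also called Chrono, represses Clock and Bmal1, and Bhlhe40 and Bhlhe41, also called Dec1 and Dec2, are E-box repressors. In mouse, cartilage and other joint tissues have clocks of their own.

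Promoter windows from 250 bases before to 50 bases after the annotated start were available for 6 of the 7 genes from RefSeq (build GRCr8), all except Hlf. They are shown because 4 of the 6 genes hold the canonical E-box, the element on which the core clock and the Bhlhe40 and Bhlhe41 proteins act. Each line gives bases upstream of the start, 5′ to 3′ on the strand of the gene, with CACGTG in capitals.
Ciart: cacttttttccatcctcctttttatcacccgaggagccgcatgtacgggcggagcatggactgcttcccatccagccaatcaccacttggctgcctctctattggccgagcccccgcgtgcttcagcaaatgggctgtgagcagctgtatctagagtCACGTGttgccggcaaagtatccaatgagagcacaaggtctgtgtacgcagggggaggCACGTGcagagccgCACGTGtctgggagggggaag
Tef: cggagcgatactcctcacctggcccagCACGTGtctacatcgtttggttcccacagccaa
Bhlhe40: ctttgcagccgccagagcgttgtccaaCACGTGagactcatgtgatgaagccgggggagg
Bhlhe41: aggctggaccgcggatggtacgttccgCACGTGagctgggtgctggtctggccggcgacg

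The Ciart stretch lies at chr2:186112247-186112496 on the minus strand, and its 3 E-boxes begin 93, 35 and 21 bases before the start (positions -93, -35 and -21). The Tef stretch lies at chr7:115206602-115206661 on the plus strand, with its E-box at position -198. The Bhlhe40 stretch lies at chr4:143174203-143174262 on the plus strand, with its E-box at position -220. The Bhlhe41 stretch lies at chr4:180569371-180569430 on the minus strand, with its E-box at position -48. Of 27457 rat promoter windows of the same 300 bases, 1826 (6.65%) hold CACGTG, which reads the same on both strands, and 17 (0.0619%) hold 3 or more. The Dbp and Nfil3 windows hold none. None of the 6 windows holds a D-box as TTATGTAA or TTACGTAA (1.005% of windows), a cAMP element as TGACGTCA (1.912%) or a Ror half-site as TAGGTCA (2.597%), searched on both strands. A match is a run of letters and not a bound site, and a missing match concerns this window alone.

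Libraries held 15513116 to 17218402 reads assigned to genes, and in every pair of libraries from one group the reads varied beyond sampling noise (17.4 to 318 as chi-square over its degrees of freedom). Cell type markers differed widely in summed CPM, which is reads scaled to the library total. The 14 neutrophil granule markers summed to 15727 to 26069 CPM in sham, 4264 to 15352 in model and 181 to 626 in treatment. The 12 erythroid markers summed to 4147 to 6704, 2932 to 12057 and 83.0 to 395 CPM. The 11 B cell markers summed to 385 to 707, 299 to 572 and 79.0 to 113 CPM, and the 12 markers of dividing cells to 1772 to 2776, 860 to 3693 and 132 to 271 CPM. Each of these 4 sums was lower in every treatment library than in any other library. For joint connective tissue, tendon sums were higher in every treatment library and the others overlapped, with 10 synovial fibroblast markers at 864 to 2378, 1302 to 7423 and 4398 to 11230 CPM, 10 chondrocyte markers at 1259 to 2559, 1479 to 3782 and 1638 to 19948 CPM, and 7 tendon markers at 471 to 1457, 504 to 1745 and 2298 to 4579 CPM. For 9 endothelial markers found of 10 the ranges were 409 to 1067, 461 to 2308 and 851 to 1192 CPM, for 9 macrophage markers found of 10 they were 749 to 1227, 734 to 1626 and 772 to 2340 CPM, and for 9 adipocyte markers 605 to 3173, 561 to 4095 and 171 to 930 CPM. The 14 skeletal muscle markers found of 16 spread within groups, from 1759 to 35264 CPM in sham, 72.1 to 1065 in model and 116 to 54123 in treatment, and sham 2, sham 4 and treatment 2 stood apart as muscle-rich at 35264, 31152 and 54123 CPM. Skin keratinocyte markers, 5 found of 8, stayed at 9.93 to 23.0 CPM in all libraries, with Krt5 at 0 in sham and model. No other marker was at 0 throughout a group. Whether these differences have a part in the results below was not tested, and in whole tissue fewer cells of a type and less RNA per cell cannot be told apart.

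Of the PAR bZIP activators, Dbp (ENSRNOG00000021027, mRatBN7.2 chromosome 1, 96175440 to 96180745, plus strand), albumin D-box binding protein, measured 109, 103, 85.4 and 78.3 CPM in sham 1 to 4. It measured 50.02, 121, 152 and 91.1 CPM in model 1 to 4, and 336, 363, 265 and 284 CPM in treatment 1 to 4. The lowest treatment library lay above the highest model library, whereas sham and model overlapped, with model 1 below every sham library. Dbp was 3.62-fold higher in treatment than in model, a log2 fold change of 1.85 ± 0.33 (SE, n = 4 per group, adjusted p = 0.00828 by limma). Against sham the difference was 1.88 ± 0.17 (adjusted p = 6.20e-05). All fold changes compare group means of log2(value + 1), taken from the authors' normalised values, which understates the change of low genes, and adjusted p runs over all genes tested.

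Tef (ENSRNOG00000019383, chromosome 7, 113317283 to 113341783, plus strand), thyrotroph embryonic factor, measured 87.0, 91.5, 58.1 and 59.6 CPM in sham. It measured 45.2, 122, 122 and 99.6 CPM in model, and 174, 237, 151 and 191 CPM in treatment. As for Dbp, model 1 was the lowest of the 12 libraries and all treatment libraries lay above all others. The difference of treatment from model was 1.20 ± 0.33 on the log2 scale (adjusted p = 0.0431) and from sham 1.51 ± 0.21 (adjusted p = 0.000572).

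Hlf (ENSRNOG00000067479, chromosome 10, 75154507 to 75211935, minus strand), hepatic leukaemia factor, was the scarcest activator, at 4.67, 6.47, 3.95 and 3.75 CPM in sham. It measured 3.61, 6.32, 7.87 and 10.1 CPM in model, and 13.7, 15.9, 10.6 and 17.1 CPM in treatment. The gap between the highest model library and the lowest treatment library was narrow, 10.1 against 10.6 CPM. The difference of treatment from model was 1.26 ± 0.32 on the log2 scale (adjusted p = 0.0354) and from sham 1.75 ± 0.24 (adjusted p = 0.000592).

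Nfil3 (ENSRNOG00000011668, chromosome 17, 12280484 to 12295858, plus strand), the D-box repressor, was the gene that went the other way. It measured 24.5, 17.4, 21.8 and 22.7 CPM in sham, 16.2, 13.6, 12.8 and 21.1 CPM in model, and 3.81, 4.76, 5.92 and 7.04 CPM in treatment. Every treatment library lay below every model and sham library. Nfil3 was 2.65-fold lower in treatment than in model, a log2 fold change of -1.40 ± 0.25 (adjusted p = 0.00842), and 3.65-fold lower than in sham, at -1.87 ± 0.22 (adjusted p = 0.000220). The neutrophil, erythroid, B cell and dividing cell markers fell in the same comparisons. Against model, 12 of 14, 12 of 12, 9 of 11 and 12 of 12 of them were called lower, and the counts against sham were the same. Of all genes, 10.5% were called lower against model and 19.5% against sham. Adipocyte markers fell as well, with 3 of 9 called lower against model and 6 of 9 against sham. The part of any of these lists in the Nfil3 result was not tested.

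**Figure D1:**
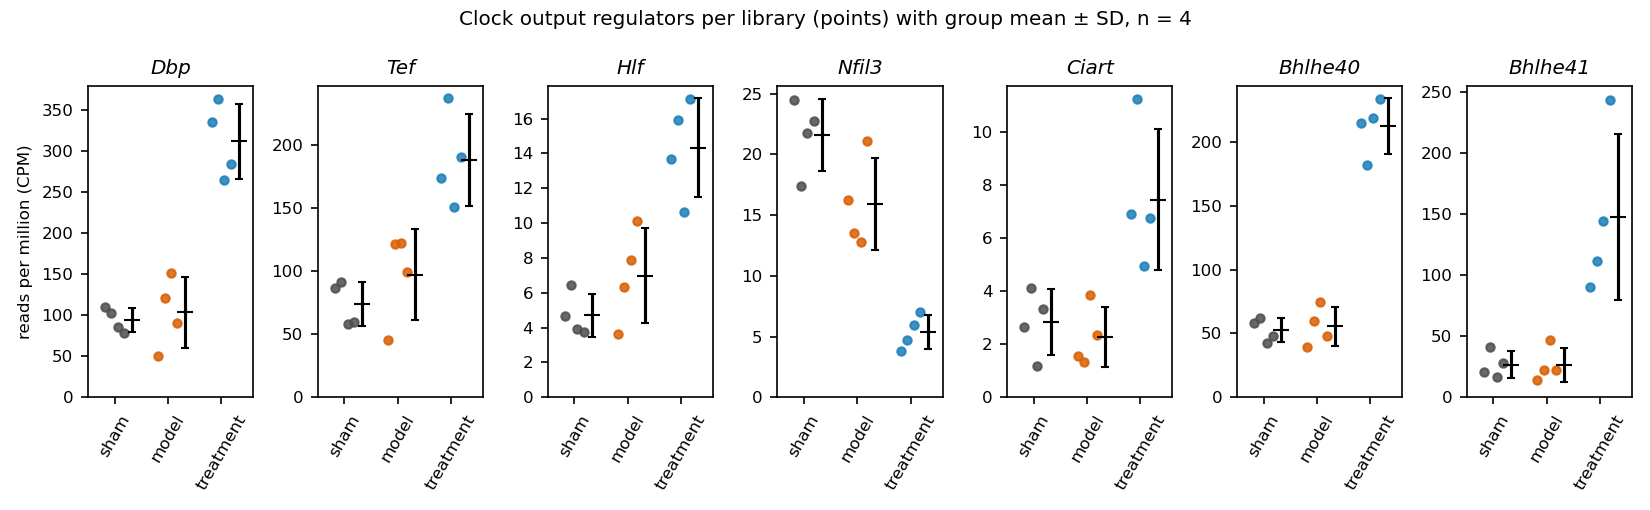
Each panel plots 1 gene, with CPM (vertical axis starting at 0, a different scale in each panel) for the 4 sham, 4 model and 4 treatment libraries as points and the group mean ± SD beside them. Treatment points lie above all others for 6 genes, such as Dbp from 265 to 363 CPM against at most 152, and below all others for Nfil3, at 3.81 to 7.04 CPM.

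Reads of an activator over reads of Nfil3 in the same library need no scaling between libraries. Dbp over Nfil3 was 4.47, 5.90, 3.93 and 3.45 in sham, 3.08, 8.89, 11.9 and 4.31 in model, and 88.1, 76.4, 44.7 and 40.4 in treatment. The group means were 4.44 ± 1.06, 7.04 ± 4.08 and 62.4 ± 23.5 (SD, n = 4). The lowest treatment ratio was above the highest model ratio while sham and model overlapped. Every treatment library already lay above the others for each activator and below them for Nfil3. That fixes the separation of all these ratios, which adds nothing to the lack of overlap of the single genes. Tef over Nfil3 was 2.62 to 5.25 in sham, 2.78 to 9.56 in model and 25.4 to 49.9 in treatment. Hlf over Nfil3 was 0.165 to 0.371, 0.222 to 0.615 and 1.79 to 3.59. Nfil3 reads thus outnumbered Hlf reads in all 8 sham and model libraries, and Hlf reads outnumbered Nfil3 reads in all 4 treatment libraries. These are ratios of reads, not of reads per length. Among activators, Dbp over Tef was 1.29 ± 0.14 in sham, 1.06 ± 0.14 in model and 1.68 ± 0.21 in treatment.

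**Figure D2:**
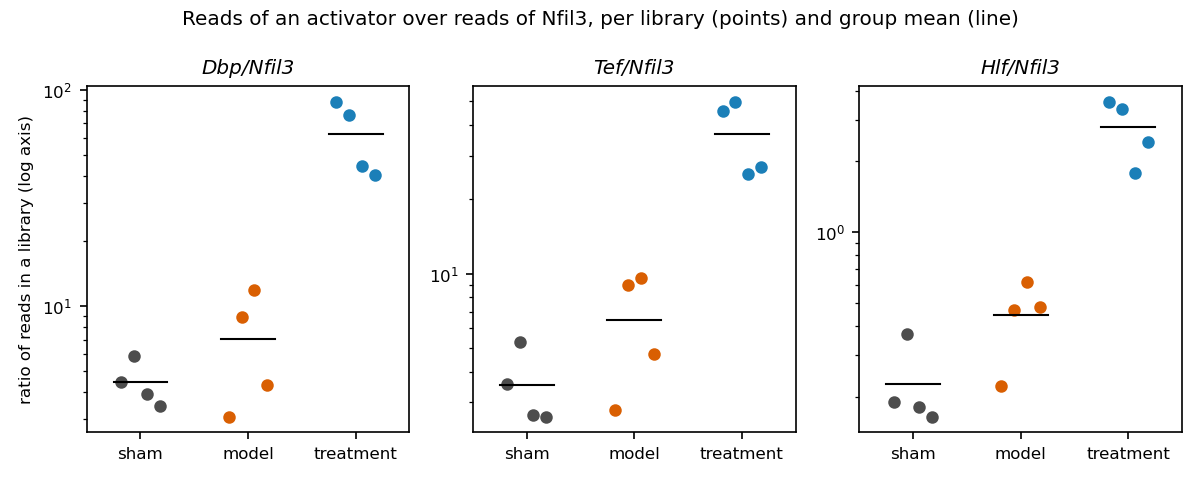
The ratio of reads of Dbp, Tef or Hlf to reads of Nfil3 in the same library is plotted on a log axis, with points for libraries and a line at the mean of each group of 4. For Dbp over Nfil3 treatment spans 40.4 to 88.1, above model at 3.08 to 11.9 and sham at 3.45 to 5.90. The lack of overlap of each single gene fixes this separation.

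Ciart (ENSRNOG00000042717, chromosome 2, 183419819 to 183423313, minus strand), whose promoter window carries the 3 E-boxes above, had the fewest reads of the 7 in sham and model by group mean. It measured 2.64, 4.13, 1.19 and 3.34 CPM in sham, 1.55, 1.35, 3.87 and 2.33 CPM in model, and 6.89, 11.2, 4.94 and 6.75 CPM in treatment. This rested on 19 to 69 reads per sham library, 22 to 62 per model library and 85 to 184 per treatment library. Treatment lay above both other groups without overlap, by 1.90 ± 0.42 on the log2 scale against model (adjusted p = 0.0203) and 1.59 ± 0.43 against sham (adjusted p = 0.0169). Its interval was wide, 0.95 to 2.85 against model (95%).

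Bhlhe40 (ENSRNOG00000007152, chromosome 4, 141618476 to 141624774, plus strand) measured 58.0, 62.3, 42.3 and 48.1 CPM in sham. It measured 39.6, 59.6, 74.9 and 48.1 CPM in model, and 215, 182, 219 and 233 CPM in treatment. The treatment libraries were close to each other, with a coefficient of variation of 10.3%, and well above the rest. Bhlhe40 was 4.37-fold higher in treatment than in model (2.13 ± 0.20 on the log2 scale, adjusted p = 0.00106) and 4.50-fold higher than in sham (2.17 ± 0.15, adjusted p = 1.73e-05). It ranked 42 by p-value among 20328 genes in the first of these comparisons and 153 among 20352 in the second.

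Bhlhe41 (ENSRNOG00000048961, chromosome 4, 178834271 to 178838468, minus strand), the paralogue of Bhlhe40, measured 20.7, 41.4, 16.8 and 28.0 CPM in sham. It measured 14.2, 22.5, 46.6 and 22.2 CPM in model, and 90.7, 112, 145 and 243 CPM in treatment. Its treatment libraries spread more than those of Bhlhe40, with a coefficient of variation of 45.8%, and treatment 4 was the highest. Bhlhe41 was 6.39-fold higher in treatment than in model (2.67 ± 0.38 on the log2 scale, adjusted p = 0.00364) and 6.04-fold higher than in sham (2.59 ± 0.34, adjusted p = 0.000449). Reads of Bhlhe40 over reads of Bhlhe41 were 2.14 ± 0.62 in sham, 2.30 ± 0.54 in model and 1.62 ± 0.58 in treatment, and these ranges overlapped.

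Model against sham compares the libraries with those labels, and 0 of 7 were called. Of all 20205 genes tested, 0% were called higher, lower or in either direction. The smallest adjusted p of any gene by limma was 0.203, with 2618 genes at an unadjusted p under 0.05, and edgeR called 0 genes and DESeq2 291, none of them among the 7. The libraries of the 2 groups overlapped for all 7 genes, against 7.85% of genes without overlap. The log2 fold change was 0.05 ± 0.31 for Dbp (95% interval -0.66 to 0.76), 0.33 ± 0.33 for Tef (-0.40 to 1.07) and 0.52 ± 0.34 for Hlf (-0.25 to 1.29). It was -0.28 ± 0.48 for Ciart (-1.36 to 0.80), 0.07 ± 0.22 for Bhlhe40 (-0.43 to 0.57) and -0.06 ± 0.40 for Bhlhe41 (-0.96 to 0.85). The intervals leave room for changes of either sign in these 6 genes. Nfil3 came nearest to the test, at -0.44 ± 0.19 (-0.86 to -0.01, adjusted p = 0.376, unadjusted p = 0.0443, exact two-sided permutation p = 0.0571).

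Treatment against model compares the libraries with those labels, and 7 of 7 were called, 6 higher and 1 lower. What the treatment libraries received, and whether they had the model, is not stated. Among all genes 14.1% were called, 3.60% higher and 10.5% lower. The libraries of the groups did not overlap for any of the 7, and 22.2% of all genes were likewise without overlap. The median log2 fold change was 1.85 over the 7 and 0.02 over all genes tested. An exact two-sided permutation test of log2 CPM gave an unadjusted p = 0.0286 for each of the 7, the smallest that 4 against 4 allows. Any gene whose CPM does not overlap between groups reaches this value, so it adds nothing to the lack of overlap. Tef lost its call without treatment 1, 2, 3 or 4 or model 3 or 4 (adjusted p = 0.0531 to 0.104), Hlf without treatment 1, 2, 3 or 4 or model 1 or 3 (0.0527 to 0.0821), and Ciart without treatment 1 or model 1 or 4 (0.0502 to 0.0590). Dbp, Nfil3, Bhlhe40 and Bhlhe41 passed in all 18 alternatives of processing, 2 of which are the same fit in this comparison (without treatment 2 and without the muscle-rich libraries). With limma on CPM of library totals Tef was at an adjusted p of 0.0676 and Hlf at 0.0550. With the replicate number as a block in limma, Tef, Hlf and Ciart lost their calls (adjusted p = 0.0502, 0.0579 and 0.0655).

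Treatment against sham again gave 7 of 7 called, 6 higher and 1 lower, in a comparison where 36.8% of genes were called, 17.3% higher and 19.5% lower. Libraries did not overlap between groups for any of the 7, and 36.7% of all genes were likewise without overlap. The median log2 fold change was 1.75 over the 7 and -0.01 over all genes tested. The exact two-sided permutation p was again 0.0286 for each, which the lack of overlap fixes. All 7 passed in all 18 alternatives. Without the muscle-rich libraries sham 2, sham 4 and treatment 2 the log2 fold changes were 1.76 for Dbp, 1.43 for Tef, 1.80 for Hlf, -1.92 for Nfil3, 1.91 for Ciart, 2.33 for Bhlhe40 and 3.14 for Bhlhe41. That fit rests on fewer libraries, with only sham 1 and sham 3 against treatment 1, treatment 3 and treatment 4. The 2 treatment comparisons share the treatment libraries and are not independent of each other. Within edgeR, scaling the recovered reads to library totals alone put the median of all genes at -0.12 in each, against 0.03 and 0.06 with TMM, and all 7 kept their direction and their call under both edgeR scalings.

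**Figure D3:**
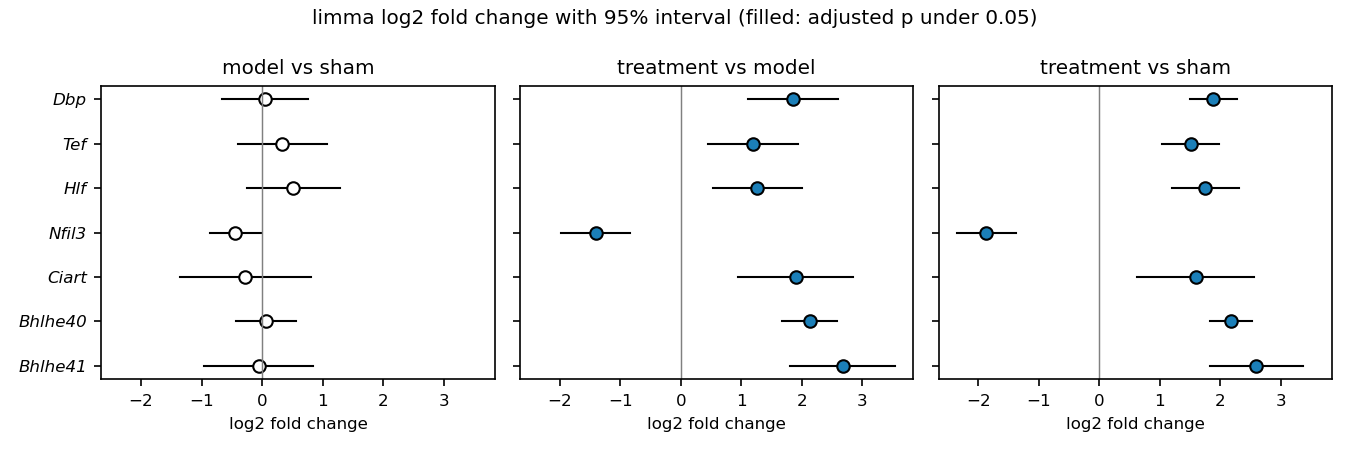
Points give the limma log2 fold change and bars its 95% interval for the 7 genes in the 3 comparisons, 4 libraries per group, filled where the adjusted p is under 0.05. All intervals of model against sham reach or nearly reach 0, while in both treatment comparisons 6 genes lie above 0 and Nfil3 lies below, at -1.40 and -1.87.

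By RPKM, reads scaled to library total and gene length, which allows levels of different genes to be compared, sham ran from Dbp at 32.9 ± 5.10 through Bhlhe40 at 17.7, Tef at 17.0, Bhlhe41 at 8.81, Nfil3 at 6.44 and Ciart at 1.99 to Hlf at 0.868 (means, n = 4). In that order Dbp stood clear of Bhlhe40 and Nfil3 clear of Ciart, and the other neighbours overlapped. In model the order was Dbp at 36.2, Tef at 22.3, Bhlhe40 at 18.7, Bhlhe41 at 8.70, Nfil3 at 4.75, Ciart at 1.60 and Hlf at 1.29, and only Nfil3 and Ciart were neighbours without overlap. In treatment it was Dbp at 109 ± 15.9, Bhlhe40 at 71.4, Bhlhe41 at 48.7, Tef at 43.2, Ciart at 5.25, Hlf at 2.64 and Nfil3 at 1.61. There Dbp stood clear of Bhlhe40, Tef clear of Ciart and Ciart clear of Hlf. Dbp was the most abundant of the 7 in each group, Hlf held one of the last 2 places, and Nfil3 moved from the fifth to the last place.

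Libraries of a group also differed among themselves. In model, library 1 was the lowest of its group for Dbp, Tef, Hlf, Bhlhe40 and Bhlhe41, at -0.92, -0.99, -0.72, -0.44 and -0.72 from the group mean of log2(CPM + 1). That library also had the highest erythroid and dividing cell marker sums of the 12 (12057 and 3693 CPM) and the lowest core clock sum (348 CPM). Its synovial fibroblast, tendon, endothelial and adipocyte sums were the lowest of the model group (1302, 504, 461 and 561 CPM). The part of any of these was not tested. Taken as deviations from group means over the 12 libraries, Dbp and Tef moved most closely together (Pearson r = 0.93), followed by Tef and Hlf (0.80), Bhlhe40 and Bhlhe41 (0.77) and Dbp and Bhlhe40 (0.76). Nfil3 ran weakly against Dbp (-0.45) and was near 0 against Hlf (0.04). Among core clock genes Dbp deviated with Nr1d2 (0.93), Per2 (0.86) and Nr1d1 (0.83), Tef with Nr1d2 (0.85) and Per3 (0.83), and Bhlhe40 with Rora (0.84). These r are descriptions without a test, since the points share the makeup and scaling of each library.

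**Figure D4:**
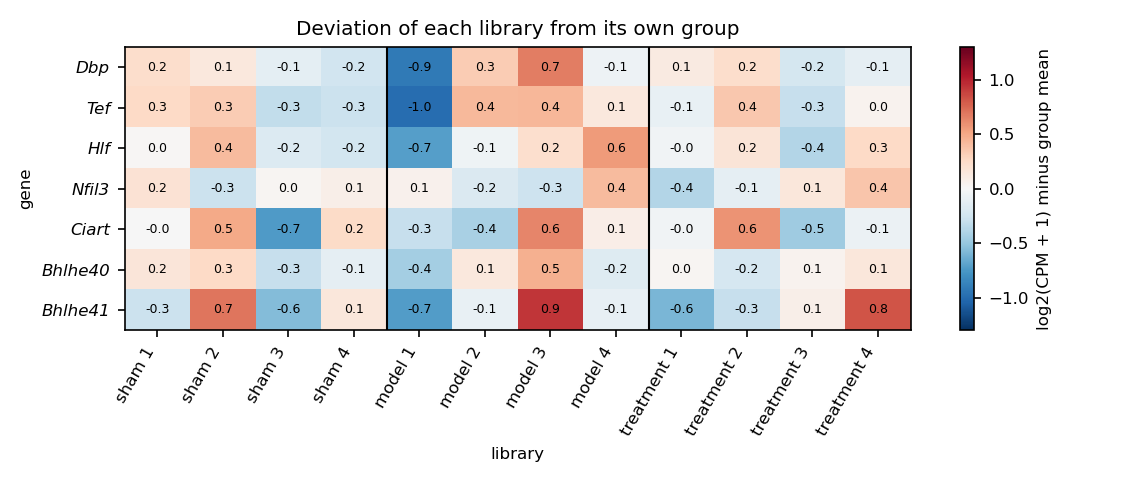
Each cell gives the log2(CPM + 1) of 1 gene in 1 library minus the mean of its own group of 4, red above and blue below that mean, with black lines between groups. Model 1 is the darkest blue column for Dbp and Tef, at -0.92 and -0.99.

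Of the core clock genes listed, 12 were found. Against model, 3 of 12 tested were higher in treatment and 0 lower, where 3.60% and 10.5% of all genes were called, and the median log2 fold change was 0.58, against 0.02 over all genes. They were the nuclear receptors Nr1d1 (1.73 ± 0.34, adjusted p = 0.0136) and Nr1d2 (1.31 ± 0.30, adjusted p = 0.0241), which repress Bmal1, and Rora (1.54 ± 0.36, adjusted p = 0.0242), which activates it. Bmal1 itself was at 0.58 ± 0.34 (adjusted p = 0.277), Clock at 0.49 ± 0.25 (0.210) and Per2 at 0.78 ± 0.32 (0.137), all short of the test, although DESeq2 called Per2 (0.76, adjusted p = 0.0395). Calls of this comparison depended on single libraries here too. Nr1d1 lost its call without model 4 (adjusted p = 0.0514), Nr1d2 without treatment 1 or model 4 (0.0628 and 0.0804) and Rora without treatment 1, treatment 3 or model 4 (0.0617, 0.0690 and 0.0657), while Bmal1 gained one without model 2 (0.0430).

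Against sham, 8 of 11 core clock genes tested were higher in treatment and 0 lower, where 17.3% and 19.5% of all genes were called, and the median log2 fold change was 1.07, against -0.01 over all genes. Besides Nr1d1 (1.81 ± 0.22), Nr1d2 (1.76 ± 0.19) and Rora (1.63 ± 0.30), these were Clock (0.92 ± 0.18), its paralogue Npas2 (2.65 ± 0.55), the repressors Per2 (1.25 ± 0.22) and Per3 (1.07 ± 0.19), and Cry2 (0.79 ± 0.19). Bmal1 was at 0.67 ± 0.29 (adjusted p = 0.100) and had an adjusted p of 0.0394 without sham 1. Its CPM was 5.71 to 12.5 in sham, 6.14 to 16.6 in model and 8.48 to 15.7 in treatment, so all 3 groups overlapped. Cry2 lost its call without the muscle-rich libraries (0.46, adjusted p = 0.124) and with edgeR scaled to library totals (0.61, adjusted p = 0.0504). Between model and sham none of 12 was called.

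**Figure D5:**
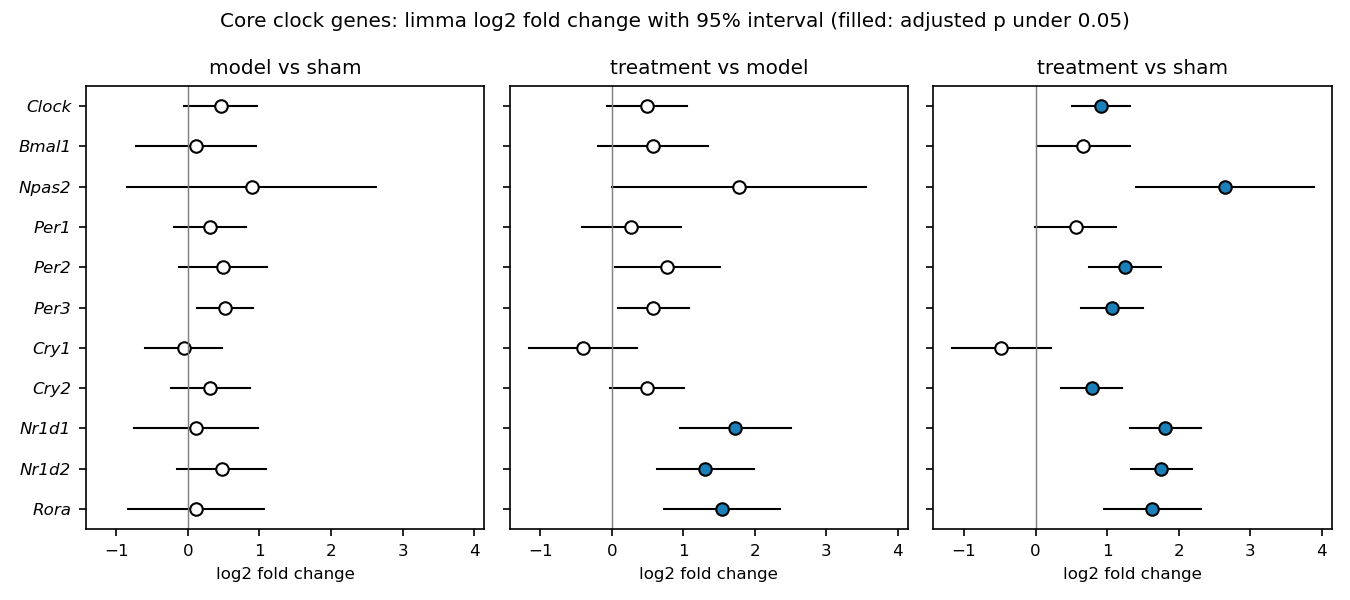
Points give the limma log2 fold change and bars its 95% interval for 11 core clock genes in the 3 comparisons, 4 libraries per group, filled where the adjusted p is under 0.05. Filled points number 0 in model against sham, 3 in treatment against model and 8 in treatment against sham, with Bmal1 open throughout.

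Among kinases, ubiquitin ligases and other genes tied to clock protein turnover, 0 of 14 were higher and 2 lower in treatment than in model, a share close to the 14.1% of all genes called there, with a median log2 fold change of 0.14. Timeless, which also acts at replication forks, fell by 2.23 on the log2 scale (-2.23 ± 0.41, adjusted p = 0.00951), and Btrc, a ubiquitin ligase subunit that targets Per proteins, fell by 1.21 (-1.21 ± 0.28, adjusted p = 0.0235). The Btrc call was lost without treatment 1, 3 or 4 or model 3 or 4 (adjusted p = 0.05003 to 0.0799). The 12 markers of dividing cells were all called lower in the same comparison, where 10.5% of all genes were. The part of dividing cells in the Timeless value was not tested. Against sham 3 of 14 were higher, among them Bmal2 (3.62 ± 0.41), a paralogue of Bmal1, and Fbxl21 (1.29 ± 0.37), a ligase subunit that acts on Cry proteins, and Timeless (-2.74 ± 0.23) and Btrc (-1.11 ± 0.17) were lower. These 5 of 14 are again near the share of all genes called against sham, 36.8%, and the median was -0.10. Fbxl21 lost its call without treatment 1 or sham 2, 3 or 4 (adjusted p = 0.0527 to 0.0610) and without the muscle-rich libraries (0.208).

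Genes reported in other tissues as targets of the PAR bZIP factors or as carriers of D-boxes did not go one way. Against model 3 of 14 were higher and 0 lower, with a median of 0.23 on the log2 scale, and these were the core clock genes Nr1d1, Nr1d2 and Rora named above. Among all genes 3.60% were called higher and 10.5% lower in that comparison. Against sham 6 were higher and 3 lower, where 17.3% of all genes were called higher and 19.5% lower. The median log2 fold change was 0.33. The 6 include Nr1d1, Nr1d2, Rora and Per3, which the core clock count above also holds, so the lists are not independent. Nr1d2 and Nr1d1 had the smallest p-values in both comparisons. The 3 that were lower against sham were Alas1 (-1.68 ± 0.34), the first enzyme of haem synthesis, Pdxk (-1.22 ± 0.26), which makes active vitamin B6, and Lpin1 (-0.78 ± 0.24). Lpin1, a phosphatase of lipid synthesis, was named after its value was seen.

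Of 12 genes known as hypoxia targets or partners, a setting in which Bhlhe40 is induced in other cells, 3 were higher and 1 lower in treatment than in model, where 3.60% and 10.5% of all genes were, and the median log2 fold change was 1.08. The pair with the smallest p-values was Pfkfb4 (-2.22 ± 0.42, adjusted p = 0.0109), a regulator of glycolysis, and Slc2a1 (2.005 ± 0.42, adjusted p = 0.0176), a glucose transporter, whose call was lost without treatment 1, treatment 3 or model 4 (0.0504, 0.0539 and 0.0566). The other two called higher, named after their values were seen, were Bnip3 (1.67 ± 0.40) and Egln3 (1.502 ± 0.33). Against sham 6 were higher and 1 lower (17.3% and 19.5% of all genes), with a median of 1.22, Pfkfb4 at -3.22 ± 0.26 and Slc2a1 at 2.37 ± 0.41. Of 11 glucocorticoid response genes, listed because glucocorticoids set peripheral clocks, 1 was higher and 1 lower against model, and these were Cdkn1a (2.55 ± 0.32, adjusted p = 0.00226), a cell cycle inhibitor, and Fkbp5 (-1.20 ± 0.23, adjusted p = 0.0126), a cochaperone of the glucocorticoid receptor. That count is close to the 14.1% of all genes called, and the list medians were 0.45 against model and 0.72 against sham on the log2 scale. Against sham 6 were higher and 1 lower (17.3% and 19.5% of all genes), again with Cdkn1a (2.63 ± 0.32) and Fkbp5 (-1.32 ± 0.15) at the smallest p-values. No gene of these 3 lists was called between model and sham. The smallest p-values there belonged to Per3 (0.51 ± 0.17) and Pdxk (-0.54 ± 0.21) among D-box targets, Egln3 (-1.02 ± 0.28) and Pfkfb4 (-0.97 ± 0.34) among hypoxia genes, and Sgk1 (0.55 ± 0.17) and Errfi1 (1.28 ± 0.62) among glucocorticoid response genes, with adjusted p of 0.270 or above.

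The genes most like each of the 7 were ranked by Pearson r of log2 CPM over the 12 libraries. They were Jtb (0.98) and Msantd3 (0.96) for Dbp, Bag3 (0.97) and Dip2c (0.96) for Tef, and Tef (0.94) and Spata7 (0.93) for Hlf. They were Cd22 (0.99) and Stk11 (0.99) for Nfil3, Synpo (0.92) and Dnajc27 (0.92) for Ciart, Epb41l3 (0.98) and Gpc1 (0.97) for Bhlhe40, and Dnajc22 (0.97) and Epb41l3 (0.96) for Bhlhe41. The treatment libraries stood apart from the rest for all 7 genes, so these r hold that split as well as variation within groups. Cd22 is among the B cell markers, whose sum was 79.0 to 113 CPM in treatment and 299 to 707 CPM in the other libraries. After removal of group means the r with Nfil3 was 0.86 for Cd22 and 0.88 for Stk11. In no group did the library with the most Nfil3 (sham 1, model 4 and treatment 4) hold the highest B cell sum (sham 4, model 1 and treatment 3). The part of B cells in the Nfil3 values was not tested. Among the 7 genes themselves, Hlf had Tef as its nearest gene of all, and Bhlhe40 and Bhlhe41 shared Epb41l3.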

How the data were processed

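Trizol extraction and the VAHTS Universal V5 library kit are named per the labels' protocols. The submitters' processing notes name fastp, DESeq2 and build mRatBN7.2, whereas aligner, counter, annotation release and strand setting are items not given in the sources used here. Whether reads of overlapping antisense genes were kept apart is therefore not known. Per comparison, the authors deposited values of 8 libraries with a normalised signal, in which reads are divided by a size factor set within each table, and gene lengths, used here for RPKM. The deposited log2 fold changes and p-values of the authors were not used for any result. Whole reads were recovered from the steps of the signal (100% of values within 0.001 reads), and gave CPM and RPKM. Recovered reads of treatment 3 came from the treatment against sham table. A line that had been blanked in each table beforehand was left out.

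Each comparison was tested with limma 3.58.1 (R 4.3.3, trend and robust) on log2(value + 1), keeping genes whose mean value reached 1, with Benjamini-Hochberg adjustment over all genes and a threshold of 0.05. Scripts were tested on simulated data. Alternatives were edgeR 4.0.16 and DESeq2 1.42.0 on recovered reads of all 12 libraries, other pseudocounts, filters and scalings, a replicate block, and leaving out each library. Of 16752 genes, edgeR called 0 for model against sham, and for treatment it called 4121 against model and 7265 against sham. The 7 genes and all lists were chosen with earlier results of these data known. Of the other clock lists, genes past the test are named, with Bmal1, Clock, Per2 and Nr1d1 always, of the further lists the 2 smallest p per comparison, and for likeness the 2 highest r where mean log2 CPM reached 1. A gene that this rule names is not reported here.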

Additional observations from a re-analysis of the deposited data

How the results depend on the processing

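Against sham, the 7 genes kept their direction and call in treatment under all 18 alternatives, and against model they kept their direction. In treatment against model, limma on CPM of library totals left Tef at an adjusted p of 0.0676 and Hlf at 0.0550, and leaving out treatment 2, the muscle-rich library, left them at 0.0824 and 0.0684. Leaving out 1 library at a time gave 4 to 7 of the 7 called in treatment against model, and 1178 to 4146 of all genes. DESeq2 called 5807 genes there and 291 in model against sham, where leaving out 1 library gave 0 to 171. In treatment against sham 4603 genes were called without the muscle-rich libraries, an alternative chosen after seeing the data. The cause of these shifts was not tested.

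Signs turned in model against sham only, where nothing was called. Without the muscle-rich libraries Ciart was at 0.29, Bhlhe41 at 0.43 and Nr1d1 at -0.10. Leaving out 1 library gave log2 fold changes of -0.18 to 0.36 for Dbp, -0.095 to 0.22 for Bhlhe40, -0.38 to 0.20 for Bhlhe41, -0.21 to 0.30 for Bmal1 and -0.15 to 0.41 for Nr1d1.

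Same-numbered libraries did not deviate together in every pair (r of -0.62 to 0.12 in model against sham, -0.18 to 0.26 for treatment with model and -0.06 to 0.45 for treatment with sham). These r also hold the makeup of each library, and no label gives the numbers a meaning. Whether the numbers pair the samples is therefore not known. With the replicate block 4 of the 7 were called in treatment against model, with Tef at an adjusted p of 0.0502, Hlf at 0.0579 and Ciart at 0.0655. Nr1d2, Rora and Btrc also rose above an adjusted p of 0.05 under it (0.0547, 0.0518 and 0.0665). Depth limits Ciart and Hlf most, at 19 and 56 reads in their lowest libraries.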
